A study of Monodelphis domestica with 6 samples.

Results

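The septin genes were followed from neonatal skin fibroblasts (neoSFs) of the opossum *Monodelphis domestica* to the induced pluripotent stem cells reprogrammed from them (monoiPSCs). Members were the rows of the deposited tables whose gene symbol had become a date, as spreadsheet programs turn the old symbol of SEPTIN11 into 11-Sep. This rule found 9 of 35665 rows, which are 1-Sep, 2-Sep, 5-Sep, 7-Sep, 8-Sep, 9-Sep, 10-Sep, 11-Sep and 12-Sep. By gene number, 8 of the 9 rows carry the matching SEPTIN name in the RefSeq annotation of a later assembly, mMonDom1.pri. The exception is the row labelled 5-Sep (gene 100029569), which that annotation lists as LOC100029569, directly beside a separate gene named SEPTIN5 that is not analysed here. What this row measures is therefore uncertain, and it is called the 5-Sep row. The same annotation names 3 further rows with LOC symbols as SEPTIN3 (gene 103100992), SEPTIN4 (gene 100012173) and SEPTIN6 (gene 100618163), and these are given beside the members of their homology group.

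Septins are GTP-binding proteins that assemble into rods and filaments at the cell cortex, along actin stress fibres and at the cleavage furrow of dividing cells. They fall into homology groups headed by SEPTIN2, SEPTIN3 and SEPTIN6, while SEPTIN7 stands alone, and a rod takes its subunits from different groups. Members of a group can often take each other's place in the rod, whereas SEPTIN7 has no such substitute. They are known as a diffusion barrier and a scaffold for myosin and anillin in cytokinesis, and as stabilisers of stress fibres in fibroblasts.

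All 6 libraries came from wild type cells of the inbred strains FD2M1 and LSD1. The 2 neoSF libraries, 1 per strain, were untreated cultures from back skin of female pups at 10 days of age, grown for 3–4 passages. The 4 monoiPSC libraries were 1 line of each strain, sampled at passages 15 and 25, made by nucleofection with episomal plasmids for human OCT4, SOX2, NANOG, KLF4, LIN28 and cMYC together with the plasmid pCE-mp53DD, and kept without feeders in medium with LIF, bFGF and the ROCK inhibitor Y27632. Each line thus contributed both of its passages, so the 4 libraries stand for 2 lines, and p-values measure the spread between these libraries. The neoSFs were read with short single-end reads in-house and the monoiPSCs with longer paired-end reads by a service, so that effects of the cell type and of the sequencing cannot be told apart.

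The total count was 14278794 and 16982978 in the neoSFs and 28684754 to 35564261 in the monoiPSCs. Levels are given as normalized read count (NRC), the antilog of the deposited log2 value, and a count of 3 corresponded to an NRC of 5.85 and 4.75 in the neoSFs and 1.55 to 1.88 in the monoiPSCs. NRC was not divided by gene length, so levels are compared between libraries and not between genes. The cell types carried their markers: all 7 tested fibroblast markers were differentially expressed (DE) and lower in monoiPSCs, and all 6 pluripotency markers were DE and higher. Markers of other lineages were also measured. Of 6 neuron markers 4 were DE and higher, with a summed NRC of 1090 and 727 in FD2M1 and LSD1 neoSFs against 2880 to 6647 in monoiPSCs. Of the 5 leukocyte markers found, none was DE among the 2 tested, and LYZ was at 0 in every library, with a summed NRC of 51.3 and 60.0 in neoSFs and 62.6 to 135 in monoiPSCs. The summed NRC of the melanocyte markers was 253 and 402 in neoSFs and 4601 to 15555 in monoiPSCs. Its rise came from DCT, at 1.95 and 1.58 in neoSFs and 4372 to 15279 in monoiPSCs. MITF was not DE, at a log2 fold change of -0.11, and MLANA went from 21.8 and 18.5 to between 1.03 and 18.2. The summed NRC of the skeletal muscle markers was 1180 and 333 in neoSFs against 1335 to 10353 in monoiPSCs. In bulk RNA, a change in the share of cells of a type cannot be told apart from a change of RNA per cell.

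To be tested, a gene had to reach an NRC of 20 in every neoSF library or in every monoiPSC library, which 8 of the 9 members and 13072 genes in all did. DE genes are those with a 2-fold change or more whose edgeR p (quasi-likelihood F test), adjusted after Benjamini and Hochberg over all these genes, did not exceed 0.05. SE stands for standard error. A gene under an NRC of 20 in a neoSF library entered the test through the monoiPSCs alone. The pluripotency markers and DCT did so. For such genes the filter favours a call as higher. The septins SEPTIN11 and SEPTIN8 were DE and lower in monoiPSCs, and no member was DE and higher. These 2 of 8 make 25%, while 45.9% of all genes tested were DE, 24.3% higher and 21.6% lower. The median log2 fold change was -0.48 over the 8 members and 0.08 over all genes tested, and the members' range ran from -2.35 for SEPTIN11 to 0.95 for SEPTIN9. SEPTIN7, SEPTIN9 and SEPTIN10 passed the p threshold and stayed under 2-fold, which brings the members past p alone to 5 of 8, against 62.2% of all genes. NRC did not overlap between neoSFs and monoiPSCs in 6 of the 8 tested members, or 75%, and in 73.2% of all genes. Of these members 2 lay above and 4 below both neoSF libraries, against 36.1% and 37.1% of all genes. The share without overlap was thus near that of all genes, and the share that was DE was below it.

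**Figure D1:**
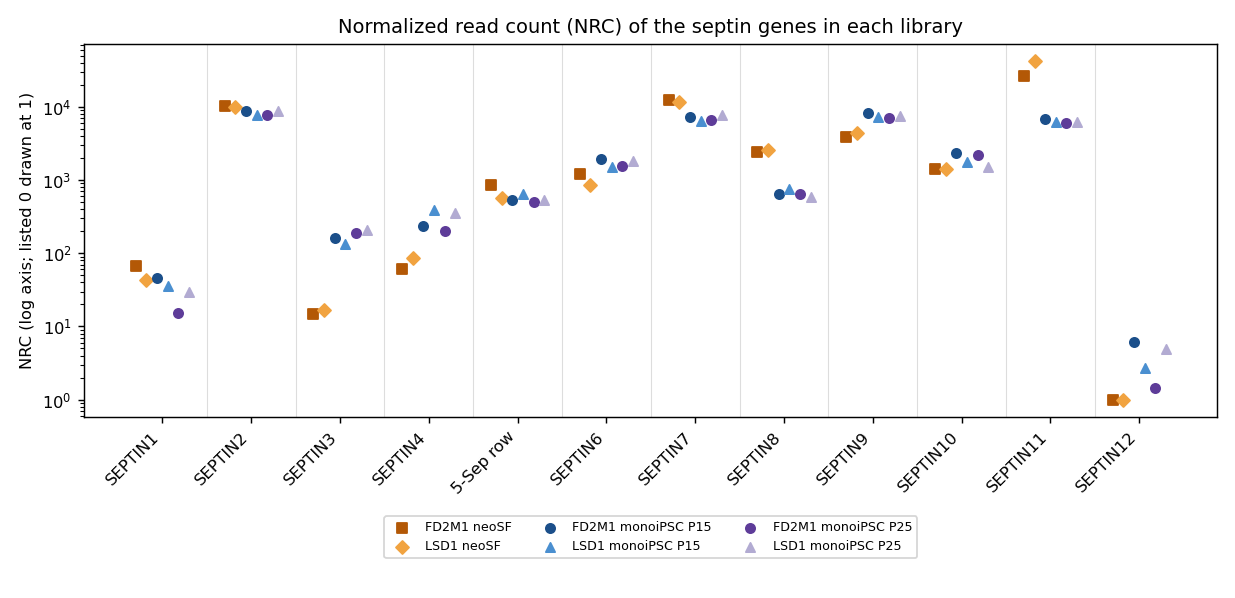
NRC of the 9 members and of SEPTIN3, SEPTIN4 and SEPTIN6 (log axis, 1 point per library; squares and diamonds are neoSFs, circles and triangles monoiPSCs). SEPTIN11 fell from 26453 and 42403 in neoSFs to between 6038 and 6872 in monoiPSCs, while SEPTIN9 lay higher in all 4 monoiPSC libraries and SEPTIN12 stayed below an NRC of 7 everywhere.

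The SEPTIN6 group held both of the DE members. SEPTIN11 (gene 100010252, chromosome 5 of MonDom5) is a filament subunit found on stress fibres of fibroblasts and in neurons. Its NRC was 26453 in FD2M1 neoSFs and 42403 in LSD1 neoSFs, against 6872 and 6038 in FD2M1 monoiPSCs at passages 15 and 25 and 6297 and 6140 in LSD1 monoiPSCs. Both neoSF libraries were far above every monoiPSC library, and the monoiPSC libraries lay close together, at 6337 ± 372 (SD, n = 4). The log2 fold change was -2.35 (SE 0.21, edgeR adjusted p = 9.85e-05), a 5.09-fold lower level. It was -1.94 without the LSD1 neoSFs and -2.64 without the FD2M1 neoSFs, so its size rested on which neoSF library was used and its direction did not.

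SEPTIN8 (gene 100018916, chromosome 1) is a paralog of SEPTIN11 that can take the same place in the rod. It had an NRC of 2451 in FD2M1 and 2582 in LSD1 neoSFs. FD2M1 monoiPSCs had 637 and 636 at passages 15 and 25, LSD1 monoiPSCs 755 and 583. The groups were well apart, and the neoSF libraries of the different strains differed by little. This was a log2 fold change of -1.85 (SE 0.15, edgeR adjusted p = 6.55e-05), or 3.61-fold lower in monoiPSCs, with values from -1.93 to -1.79 on omission of any single library. SOWAHA, which overlaps SEPTIN8 in the later annotation, stayed below an NRC of 13 in every library.

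The other genes of this group did not share that direction. SEPTIN10 (gene 100020691, chromosome 7), another paralog of the group, had an NRC of 1396 and 1435 in FD2M1 and LSD1 neoSFs. FD2M1 monoiPSCs reached 2352 and 2169 at passages 15 and 25, LSD1 monoiPSCs 1742 and 1519. All 4 monoiPSC libraries were above both neoSF libraries, but LSD1 at passage 25 was above them by little. At 0.56 on the log2 scale (SE 0.21, edgeR adjusted p = 0.0482) the difference was under 2-fold. It was at the edge of the p threshold, as the adjusted p ranged from 0.0163 to 0.152 over 15 alternatives and exceeded 0.05 in most of them. SEPTIN6, on chromosome X, had an NRC of 1197 and 856 in neoSFs and 1490 to 1916 in monoiPSCs. Its log2 fold change of 0.82 (SE 0.20, edgeR adjusted p = 0.00833) was also under 2-fold. It was 1.09, past 2-fold, without the FD2M1 neoSFs, and 0.62, with an edgeR adjusted p of 0.0561, without the LSD1 neoSFs.

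SEPTIN7 (gene 100022006, chromosome 6), the subunit without a substitute, was lower in the monoiPSCs by less than the DE threshold. The NRC was 12449 in FD2M1 and 11656 in LSD1 neoSFs. FD2M1 monoiPSCs had 7180 and 6577 at passages 15 and 25, LSD1 monoiPSCs 6454 and 7855. The groups did not overlap, at a log2 fold change of -0.68 (SE 0.15, 95% confidence interval -1.03 to -0.34, edgeR adjusted p = 0.00545), a 1.61-fold difference.

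In the SEPTIN2 group no member was DE. SEPTIN2 (gene 100022622, chromosome 7), which binds actin and myosin and is needed for cytokinesis in many cells, had an NRC of 10425 and 9958 in FD2M1 and LSD1 neoSFs. It was 8666 and 7658 in FD2M1 monoiPSCs at passages 15 and 25, and 7778 and 8726 in LSD1 monoiPSCs. Every monoiPSC library was below both neoSF libraries, by a small margin. SEPTIN2 thus differed by -0.22 on the log2 scale, with a 95% confidence interval from -0.55 to 0.12 that leaves out a 2-fold change in either direction (edgeR adjusted p = 0.224). The later annotation has SEPTIN2 overlap HDLBP, whose NRC was 26237 and 24938 in neoSFs and 8236 to 10314 in monoiPSCs, and whether counting used the strand is not given in the sources used here, so reads of the shared stretch may belong to either gene.

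SEPTIN1 (gene 100017573, chromosome 6), known mainly from lymphoid cells, was rare in both cell types. Its count was 34 and 27 in FD2M1 and LSD1 neoSFs, 83 and 24 in FD2M1 monoiPSCs at passages 15 and 25, and 68 and 57 in LSD1 monoiPSCs. On the NRC scale this was 66.6 and 42.5 in neoSFs and 46.4, 15.3, 36.0 and 29.5 in the monoiPSCs in the same order. The groups overlapped, and FD2M1 at passage 25 was the lowest library, its count of 24 having an exact Poisson interval of 15.4 to 35.7, which covers counting error only. On the log2 scale the difference was -0.68 with a 95% confidence interval from -1.85 to 0.50 (edgeR adjusted p = 0.272), an interval that holds both an equal level and a 2-fold lower one. Among the monoiPSCs, the exact Poisson interval of the count of 83, from 66.1 to 103, did not meet that of the count of 24. SEPTIN1 overlaps ZNF48 in the later annotation, and ZNF48 had an NRC of 1443 and 1462 in neoSFs and 750.1 to 1056 in monoiPSCs. As with SEPTIN2 and HDLBP, reads of the shared stretch may belong to either gene, so the low counts of SEPTIN1 need not all be its own.

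The 5-Sep row (chromosome 3) had an NRC of 862 in FD2M1 and 566 in LSD1 neoSFs. FD2M1 monoiPSCs had 532 and 495 at passages 15 and 25, LSD1 monoiPSCs 640 and 526. The FD2M1 neoSFs were the highest library and the LSD1 neoSFs lay within the range of the monoiPSCs. The log2 fold change of -0.28 (95% confidence interval -0.79 to 0.22, edgeR adjusted p = 0.283) turned to 0.06 without the FD2M1 neoSFs. SEPTIN5 itself is a neuronal and platelet septin that binds syntaxin, but these values cannot be assigned to it with certainty.

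SEPTIN4, a septin of the sperm annulus and of neurons, was the DE gene of this group. Its NRC was 60.4 and 84.8 in FD2M1 and LSD1 neoSFs, 234 and 203 in FD2M1 monoiPSCs at passages 15 and 25, and 389 and 352 in LSD1 monoiPSCs. It was DE and higher in monoiPSCs, with a log2 fold change of 2.10 (SE 0.39, edgeR adjusted p = 0.00261). In the same libraries 4 of the 6 neuron markers were DE and higher and 2 were not DE, and their part in this was not tested.

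**Figure D2:**
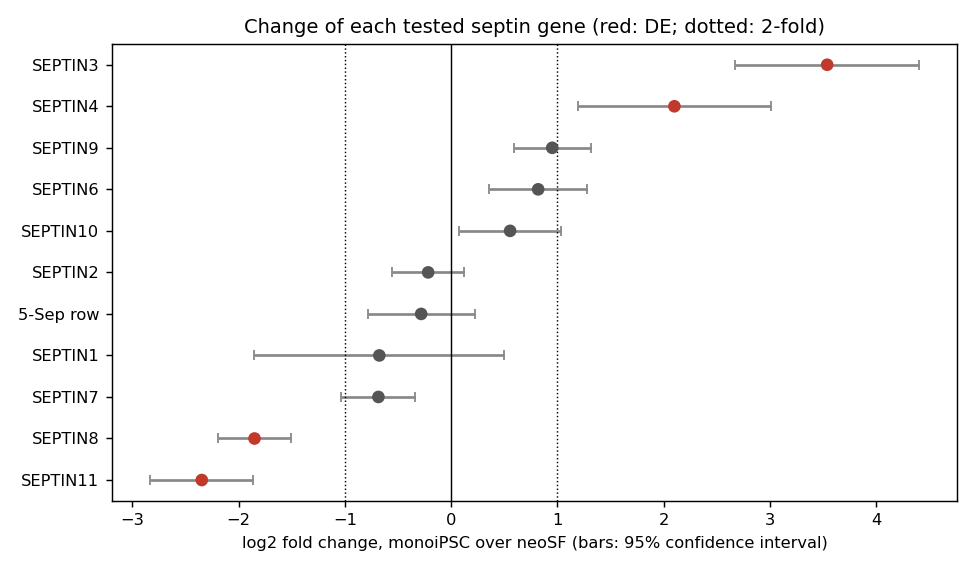
Log2 fold change of the 11 tested septin genes, monoiPSC over neoSF, with 95% confidence intervals from the edgeR fit (red points are DE, dotted lines mark 2-fold). SEPTIN11 and SEPTIN8 lie at the lower end at -2.35 and -1.85. SEPTIN3 and SEPTIN4 lie at the upper end at 3.54 and 2.10, and the other 7 genes lie within 2-fold. SEPTIN3 entered the test through the monoiPSCs alone.

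In the SEPTIN3 group, SEPTIN9 (gene 100031227, chromosome 2) had the highest log2 fold change of the members. SEPTIN9 is a subunit of the longer form of the rod and links septins to microtubules and actin. The NRC was 3881 in FD2M1 and 4439 in LSD1 neoSFs, against 8142 and 7009 in FD2M1 monoiPSCs at passages 15 and 25 and 7379 and 7592 in LSD1 monoiPSCs. All 4 monoiPSC libraries were well above both neoSF libraries. The log2 fold change of 0.95 (SE 0.15, 95% confidence interval 0.59 to 1.31, edgeR adjusted p = 0.00144) corresponds to 1.93-fold and was just under the fold threshold. Without the LSD1 neoSFs it was 1.08, past the threshold.

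SEPTIN12 (gene 100026939, chromosome 6) is known from the annulus of sperm and was near the detection limit in all libraries. It had 0 counts, after rounding, in both neoSF libraries, and 11, 5, 2 and 9 counts in FD2M1 and LSD1 at passage 15 and FD2M1 and LSD1 at passage 25. Its mean NRC of 3.77 in monoiPSCs was below the 5.85 that 3 counts make in the FD2M1 neoSFs, so no fold change is given, and it was the member left out of the test.

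SEPTIN3, a septin of neurons, had the highest log2 fold change of the 11 tested septins. It had 8 and 10 counts in FD2M1 and LSD1 neoSFs, an NRC of 14.6 and 16.6. FD2M1 monoiPSCs had 160 and 189 at passages 15 and 25, LSD1 monoiPSCs 135 and 205, all far above the neoSFs. That is a log2 fold change of 3.54 (SE 0.37, edgeR adjusted p = 0.000198). Of the 6 neuron markers, TUBB3, MAP2, ELAVL4 and SNAP25 were DE and higher. ELAVL4 and SNAP25 were also admitted through the monoiPSCs alone. RBFOX3, at a log2 fold change of 0.14, and SYT1, at -0.56, were not DE. The part of neuronal cells in the SEPTIN3 level was not tested. With SEPTIN3, SEPTIN4 and SEPTIN6, 4 of 11 tested septins were DE, of which 2 were higher and 2 lower. SEPTIN3, admitted through the monoiPSCs alone, is among the 2 higher. Over all genes tested, 45.9% were DE, 24.3% higher and 21.6% lower.

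The makeup of the family was also compared within libraries, since the ratio of a pair of genes in the same library does not depend on how libraries are scaled. These ratios were chosen after the values above were seen and are given as a description, with no test. Each septin was divided by SEPTIN7, and in 8 of 10 cases the log2 ratio did not overlap between neoSFs and monoiPSCs, while 75.6% of all genes tested had a ratio to SEPTIN7 without overlap. The log2 ratio of SEPTIN11 to SEPTIN7 was 1.09 and 1.86 in FD2M1 and LSD1 neoSFs and between -0.36 and -0.04 in the monoiPSCs, a shift of -1.62. That of SEPTIN9 to SEPTIN7 was -1.68 and -1.39 in neoSFs and between -0.05 and 0.19 in the monoiPSCs, a shift of 1.64. SEPTIN2, of which the NRC had been slightly lower in the monoiPSCs, was higher relative to SEPTIN7, at -0.26 and -0.23 in neoSFs and 0.15 to 0.27 in monoiPSCs. SEPTIN1 and the 5-Sep row were the cases with overlap. SEPTIN7 itself was lower in monoiPSCs, at a log2 fold change of -0.68, which raises every ratio to it there.

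Within the SEPTIN6 group the paralogs were set against SEPTIN11. SEPTIN11 itself had a log2 fold change of -2.35, which raises every ratio to it in monoiPSCs. The log2 ratio of SEPTIN10 to SEPTIN11 was -4.24 and -4.89 in FD2M1 and LSD1 neoSFs and between -2.02 and -1.48 in monoiPSCs, a 7.17-fold shift. For SEPTIN6 to SEPTIN11 it was -4.47 and -5.63 in neoSFs and between -2.08 and -1.76 in monoiPSCs, an 8.79-fold shift. SEPTIN8 and SEPTIN11 both fell, and their log2 ratio moved from -3.43 and -4.04 to between -3.43 and -3.06. In the FD2M1 neoSFs this last ratio almost met the lowest monoiPSC library. SEPTIN11 made up 45.6% and 58.0% of the summed NRC of the 9 members in neoSFs and 18.6% to 20.3% in monoiPSCs. The summed NRC of the other 8 members was 31531 and 30677 in neoSFs and 24560 to 27562 in monoiPSCs. These sums weigh long genes more.

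**Figure D3:**
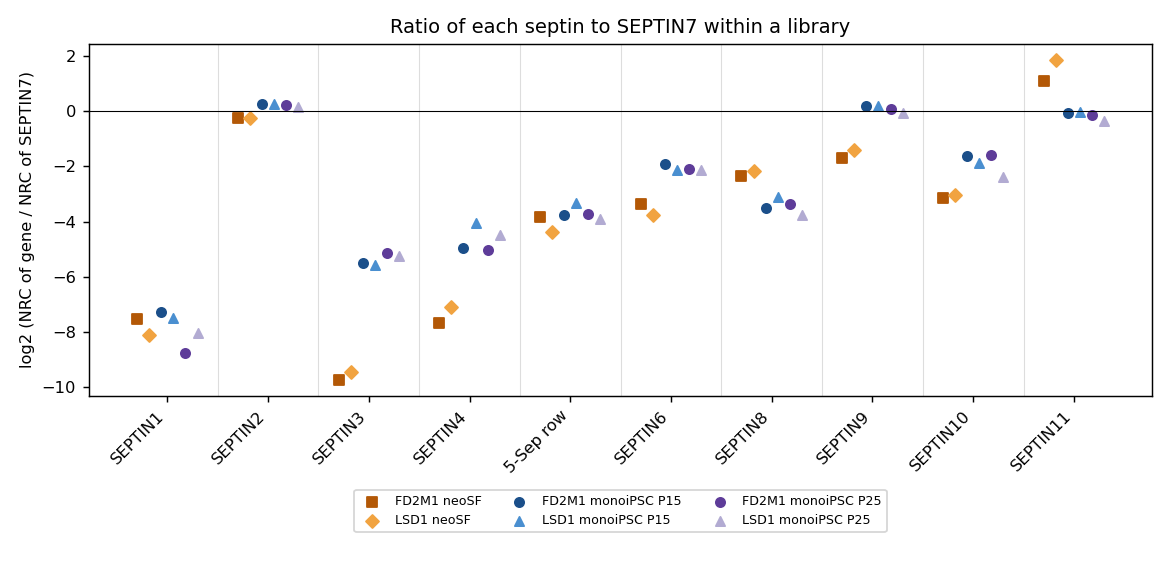
Log2 ratio of the NRC of each septin to that of SEPTIN7 within the same library (1 point per library, SEPTIN12 left out because it was listed at 0 in neoSFs). The ratio of SEPTIN11 dropped from 1.09 and 1.86 in neoSFs to below 0 in all 4 monoiPSC libraries. Those of SEPTIN9, SEPTIN10, SEPTIN6, SEPTIN4 and SEPTIN3 were higher in monoiPSCs, where SEPTIN7 itself was lower.

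The strains were compared next, with each monoiPSC library set against the neoSFs of its own strain. The sign was the same in all 4 libraries for 7 of 8 tested members and for 79.5% of all genes. The 5-Sep row was the exception, at -0.70 and -0.80 on the log2 scale in FD2M1 and 0.18 and -0.10 in LSD1. SEPTIN11 stood at -2.75 and -2.79 in LSD1 at passages 15 and 25, and at -1.94 and -2.13 in FD2M1. The interaction of strain and cell type for SEPTIN11 was -0.75, with a 95% confidence interval from -1.50 to 0.0031 (edgeR, unadjusted p = 0.0507, adjusted p = 0.552). No member passed this test, while 0.0841% of all genes did, and DESeq2 called no member and 2.34% of all genes. At an unadjusted p under 0.05 there were 0 of 8 members and 9.13% of all genes.

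Within the monoiPSCs, no septin was DE between passages or lines. With strain as a covariate, 0 of the 7 members that could be tested were DE between passage 25 and passage 15, as were 0% of 12252 genes with edgeR. At an unadjusted p under 0.05 there were 0 members, against 9.35% of all genes, and DESeq2 called 0 members and 0.971% of all genes. The intervals excluded a 2-fold change for all 7. For SEPTIN11 the log2 fold change between passages was -0.13, with a 95% confidence interval from -0.47 to 0.21, and for SEPTIN8 it was -0.20, from -0.68 to 0.27.

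Between LSD1 and FD2M1 monoiPSCs, again 0 of 7 members were DE with edgeR, as were 0% of all genes, and DESeq2 called 0 members and 1.56% of all genes. At an unadjusted p under 0.05 there was 1 member, SEPTIN10, beside 14.2% of all genes. SEPTIN10 was lower in LSD1 at both passages, with a log2 fold change of -0.47 (95% confidence interval -0.83 to -0.11, adjusted p = 0.268, edgeR). SEPTIN4 was higher in LSD1 at both passages, with a log2 fold change of 0.77 (95% confidence interval 0.20 to 1.34, adjusted p = 0.251, edgeR). These are the 2 of 10 septins without overlap between the lines, against 43.5% of all genes.

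**Figure D4:**
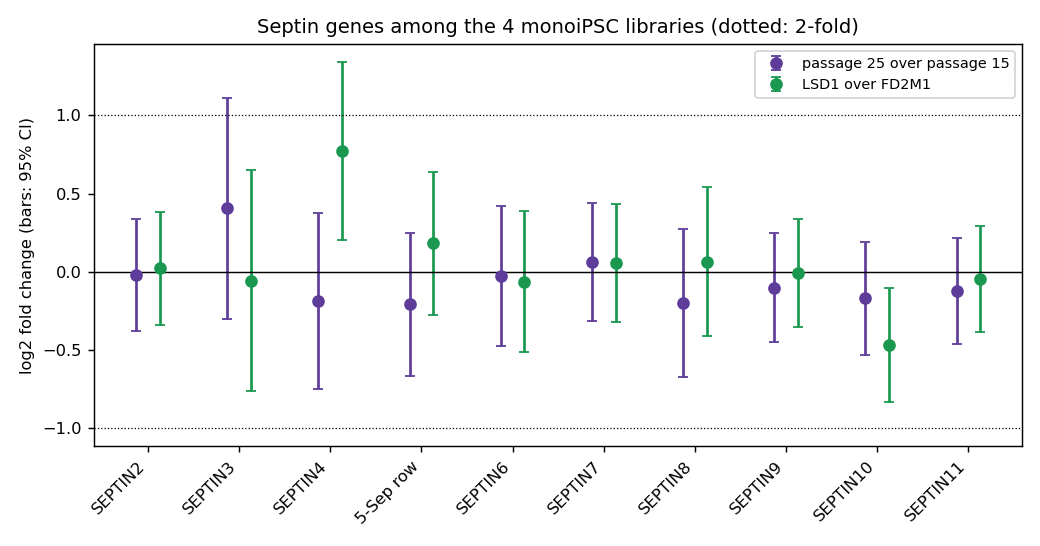
Log2 fold change of the 10 septins tested among the 4 monoiPSC libraries, for passage 25 over passage 15 and for LSD1 over FD2M1 (bars are 95% confidence intervals of the edgeR fit, dotted lines mark 2-fold). None was DE, and the intervals of SEPTIN4 and SEPTIN10 between lines, at 0.77 and -0.47, are those that leave out 0.

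Genes that work with septins were then taken from 5 lists. Borg proteins (CDC42EP1 to CDC42EP5) bind septins under the control of the GTPase CDC42. Of the 5 genes of this list that were found, 1 was DE and higher and 3 were DE and lower. Over all genes tested, 24.3% were DE and higher and 21.6% DE and lower. CDC42EP3 was the lowest, with an NRC of 5979 and 5739 in neoSFs and 142 to 216 in monoiPSCs and a log2 fold change of -5.03 (SE 0.19, edgeR adjusted p = 8.23e-06). CDC42EP4 was the highest, with an NRC of 841 and 1354 in neoSFs and 4490 to 6012 in monoiPSCs and a log2 fold change of 2.34 (SE 0.25, edgeR adjusted p = 0.000233). CDC42 itself had a log2 fold change of -0.08. CDC42EP2, the third lower gene beside CDC42EP1, was close to the fold threshold at -1.02.

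Septins are recruited to the cleavage furrow by anillin, so genes of the cytokinetic ring and midbody were taken as the next list. Of 12 genes, 8 were DE and higher in monoiPSCs, 1 was DE and lower and 3 were not DE. The shares over all genes tested were 24.3% DE and higher and 21.6% DE and lower. Their median was 2.23 on the log2 scale, against 0.08 over all genes. ECT2, the exchange factor that activates RHOA at the furrow, had the highest log2 fold change, 4.86 (SE 0.26, edgeR adjusted p = 1.60e-05), from an NRC of 83.2 and 54.9 in neoSFs to between 1580 and 2046. ANLN, which encodes anillin, had an NRC of 672 and 366 in neoSFs and 2353 to 2798 in monoiPSCs. MYH9, a non-muscle myosin heavy chain that also works in stress fibres, was the lowest, at -3.21 (SE 0.26, edgeR adjusted p = 6.79e-05).

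Actin stress fibres, along which septins lie, gave the list with the most lower genes. Of its 10 genes, 9 were DE and lower and none was DE and higher, against 21.6% and 24.3% of all genes tested. The median was -2.86 on the log2 scale. TPM1, a tropomyosin of actin cables, fell most, from an NRC of 95743 and 120527 in neoSFs to between 1419 and 2385 in monoiPSCs, a log2 fold change of -5.82 (SE 0.26, edgeR adjusted p = 1.11e-05). TPM2 was the highest of the list, at -0.19 (95% confidence interval from -2.58 to 2.20), and varied from 102 to 1380 among the monoiPSC libraries. SEPTIN11 and SEPTIN8 fell in the same libraries as these genes and the 7 fibroblast markers, whose summed NRC was 1.46e+06 and 1.64e+06 in neoSFs and 2515 to 7550 in monoiPSCs, and the part of these in the fall of the septins was not tested.

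The exocyst, a vesicle tethering complex that associates with septins, was the next list. Of its 9 genes, 1 was DE and higher and 2 were DE and lower, against 24.3% and 21.6% of all genes tested. An edgeR adjusted p of at most 0.05 was reached by 8 of the 9, against 62.2% of all genes. The count of DE genes grew to 6 with limma. EXOC6 was the highest, at 2.25, from an NRC of 20.5 and 40.9 in neoSFs to between 111 and 159. EXOC1 was the lowest, at -1.31. The last list held presynaptic genes, to which the syntaxin partners of SEPTIN5 belong. Among them STX1A did not exceed 3 counts in either of the neoSFs and had an NRC of 308 to 837 in the monoiPSCs. SNAP25, which pairs with syntaxin in vesicle fusion, had an NRC of 9.76 and 4.15 in neoSFs and 92.3 to 195 in monoiPSCs. Both genes were DE and higher. STX1A and SNAP25 were under an NRC of 20 in the neoSFs and entered the test through the monoiPSCs alone, so the filter favoured these calls. SYT1, a calcium sensor of vesicle release, had the lowest log2 fold change of the list at -0.56 and was not DE.

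**Figure D5:**
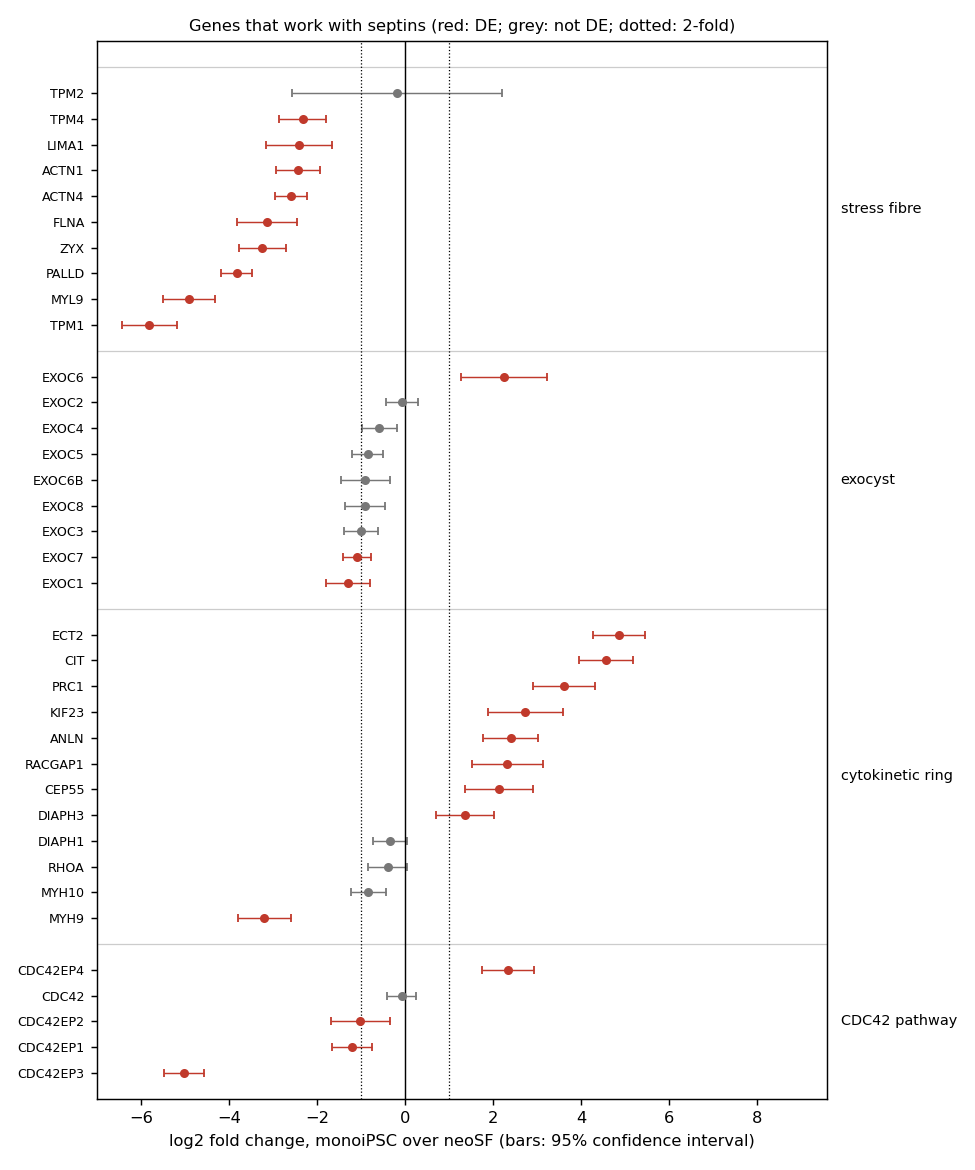
Log2 fold change, monoiPSC over neoSF, of the tested genes of 4 of the lists of septin partners, with 95% confidence intervals of the edgeR fit (red points are DE, grey points are not, dotted lines mark 2-fold). In the cytokinetic ring list 8 of 12 genes are DE and higher, and in the stress fibre list 9 of 10 are DE and lower. Of all genes tested, 24.3% are DE and higher and 21.6% DE and lower.

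The genes whose profile over the 6 libraries was most like that of each member were found by the root mean square difference of log2 NRC after centring each gene on its mean. This is a description over 6 libraries that fall into separate cell types, and says nothing of shared function. SEPTIN11 was closest to LASP1, with a difference of 0.037 on the log2 scale, then to LARP6 and RANBP10. SEPTIN8 was closest to NPTN (0.078), STRN and YIPF6. SEPTIN7 was closest to SPIRE1 (0.045), ETFDH and TRAFD1, and SEPTIN2 to TRAPPC5 (0.030), RSPH9 and PDCD10. SEPTIN9 was closest to UBE2O (0.053), ZMYM2 and EIF3E, and SEPTIN10 to EDC4 (0.036), DDX10 and NAA40. The 5-Sep row was closest to ROR1 (0.046), DGCR2 and PDZD11. For SEPTIN1 the nearest gene, LRFN5, was already 0.27 away, beside DDX28 and PPP1R9B. Among the genes named with LOC numbers, SEPTIN3 was closest to CENPH (0.12), CKS1B and PPP4R4, SEPTIN4 to MAD2L2 (0.16), PDE4C and ZBTB42, and SEPTIN6 to HECTD4 (0.053), MIDN and SYNE4.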

How the data were processed

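RNA of 2 neoSF and 4 monoiPSC libraries had been aligned by the authors to MonDom5 with StrandNGS, filtered by read and mapping quality, and counted on RefSeq genes. The deposited raw counts were mostly fractional (85.3% of values above 0 differed from a whole number by over 0.001), so they count as estimated counts here and were rounded. The deposited log2 values are, by the note at the end of the file, counts after DESeq normalization, and NRC was taken as their antilog.

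Genes that reached an NRC of 20 in every library of a cell type were tested with edgeR 4.0.16 (R 4.3.3, TMM scaling, quasi-likelihood test, no block), adjusted over all genes tested. The standard error is the log2 fold change divided by the square root of F, and intervals use the t quantile of the fit's degrees of freedom. Comparisons of passage and of strain used the 4 monoiPSC libraries with the other factor as covariate, and the interaction used all 6. Alternatives were RLE scaling, other filters, unrounded counts, DESeq2 1.42.0, limma 3.58.1 on the log2 values, strain as a block, and leaving out libraries. The scripts were tested on simulated data.

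Strain ties each monoiPSC line to the fibroblasts it was made from, which gives the pairing. Deviations of same-strain libraries from their group means had a correlation across genes of 0.04. The members and lists were chosen with earlier results of these data known. The plan foresaw 6 date-converted septin rows and the rule found 9, all of which were used. Named genes were all septins, the highest and lowest tested gene of each partner list and the 3 nearest profiles of each tested septin, and other genes were named after their values were seen. Gene names for LOC numbers and gene overlaps came from the RefSeq annotation of mMonDom1.pri, whose build differs from MonDom5, and coordinates were left out. The lists lacked a row for CDC42EP5. Protein and promoter sequences were not used here, and 1 gene of the presynaptic list is not reported here. Of further marker lists, neither of the 2 keratinocyte markers found was tested (both at 0 in the monoiPSCs), and the 1 endothelial marker tested, KDR, was not DE. Of the melanocyte and skeletal muscle markers, DCT and MYOG were DE and higher in monoiPSCs, while MITF, MYOD1 and DES were not DE.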

Additional observations from a re-analysis of the deposited data

Results flagged for a closer look

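No septin gene had a monoiPSC library that stood apart from the other 3. There were 2 genes of the partner lists that did, in which the gap of the LSD1 library at passage 25 to the nearest library was a large part of the range of the 4 monoiPSC libraries. For TPM2 the NRC was 1380 there against 102 to 245 in the others, a gap of 0.888 of the range. For SYT1 it was 510.2 against 236 to 280, a gap of 0.842 of the range. Chance would flag about 1 in 20 groups in this way if values were independent and normally spread, which was not tested. Passages of a shared line are not independent. The same library also had the highest NRC of the muscle genes DES, at 4213 against 315 to 769, and MYOD1, at 591 against 35.1 to 103. MYOG was highest there too, at 5549, but LSD1 monoiPSCs at passage 15 reached 4135 with TPM2 at 245. The part of muscle cells in the TPM2 level was not tested.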

How the results depend on the processing

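The count of DE members was 2 with RLE scaling, DESeq2, limma, no expression filter, filterByExpr, unrounded counts and either passage alone, the last of which was chosen after seeing the data. With strain as a replicate block it was also 2, both lower, and the block changed no other call of a septin. Leaving out 1 library gave 2 to 3 members, where the third was SEPTIN9 at a log2 fold change of 1.08 without the LSD1 neoSFs. The 5-Sep row turned from -0.28 to 0.059 without the FD2M1 neoSFs and was -0.53 without the LSD1 neoSFs, and the cause was not tested. The count of DE genes over all genes lay between 5483 and 6780. Of the partner lists, the exocyst count moved from 3 to 6 with limma, to 6 with passage 25 alone and to 3 to 5 when 1 library was left out, and the cause was not tested. The other lists stayed within 1.5 times of their counts. The tests of passage, of strain and of the interaction of strain with cell type called 0 members under each alternative run. Leaving out a library was possible for passage and strain only without the covariate, and for the interaction only among monoiPSC libraries. Depth limits SEPTIN12, with at most 11 counts in a library.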
